A study of Mus musculus with 6 samples.

Results

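Fcer1a, Ms4a2, Il1rl1, Cd200r3, Hdc and Mitf are 6 genes of the mast cell and basophil programme, and they were followed here in mouse megakaryocytes, the bone marrow cells that shed platelets. Every probe set that the array's annotation gives to 1 of these genes alone was taken, which gave 9 of the 45101 probe sets on the array and measured 5 of its 18193 genes with such a probe set. Fcer1a had 1 probe set and Ms4a2, Cd200r3, Hdc and Mitf had 2 each. Il1rl1 had 0 in the probe table used here and was not analysed here. The megakaryocytes came from fetal liver cells of mice on a mixed C57BL/6xSv129 background, were differentiated with thrombopoietin, the hormone of the platelet lineage, and the mature cells were collected on a bovine serum albumin gradient. The knock-in group was 3 arrays from cultures that the labels call FOG1-/- ki/ki, written FOG1 ki/ki below. The control group was 3 arrays, with FOG1+/- cultures as replicates 1 and 2 and a FOG1+/+ culture as replicate 3. FOG1, encoded by Zfpm1, is the cofactor through which GATA factors act in megakaryocytes. The labels do not say what change the knocked-in allele carries, how old the fetuses were or whether cultures pooled animals. They call the samples biological replicates without naming separate animals, so p-values measure the spread between these samples.

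Mast cells and basophils carry the high-affinity receptor for IgE. Its alpha chain, the product of Fcer1a, holds the antibody, its beta chain, the product of Ms4a2, amplifies the signal, and its gamma chain, the product of Fcer1g, signals and is shared with other receptors, among them the platelet collagen receptor. Il1rl1 encodes the receptor for interleukin-33, and Cd200r3 an activating receptor of mouse mast cells and basophils. Hdc makes histamine, and Mitf is a transcription factor that mast cells need to mature. GATA1 and GATA2 serve megakaryocytes and mast cells alike, while FOG1 is a megakaryocyte and erythroid cofactor that mast cells shut off.

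Because GATA factors are FOG1's partners, the 250 bases before the RefSeq start sites were searched on both strands for the 6-letter GATA words, which are AGATAA and its variant AGATAG, as well as TGATAA and its variant TGATAG. Of 9 such windows for the 6 genes, 8 held at least 1 word, against 26.5% of all 32851 mouse windows of the same length. The 4 windows below belong to the genes with a single window and a measured probe set. They run 5′ to 3′ on the gene's strand, with GATA words in capitals, and their coordinates are those of build GRCm38.p6.
Fcer1a, chr1:173227230-173227479, minus strand: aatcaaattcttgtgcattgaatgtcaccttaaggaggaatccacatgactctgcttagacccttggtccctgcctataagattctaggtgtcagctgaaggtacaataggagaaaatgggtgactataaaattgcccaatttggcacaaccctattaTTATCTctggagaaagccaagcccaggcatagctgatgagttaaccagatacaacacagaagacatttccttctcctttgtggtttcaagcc
Ms4a2, chr19:11623720-11623969, minus strand: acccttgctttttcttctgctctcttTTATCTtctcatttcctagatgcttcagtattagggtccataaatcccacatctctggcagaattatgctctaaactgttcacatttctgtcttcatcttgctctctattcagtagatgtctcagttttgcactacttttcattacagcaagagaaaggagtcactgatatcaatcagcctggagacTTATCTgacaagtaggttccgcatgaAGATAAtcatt
Cd200r3, chr16:44943428-44943677, plus strand: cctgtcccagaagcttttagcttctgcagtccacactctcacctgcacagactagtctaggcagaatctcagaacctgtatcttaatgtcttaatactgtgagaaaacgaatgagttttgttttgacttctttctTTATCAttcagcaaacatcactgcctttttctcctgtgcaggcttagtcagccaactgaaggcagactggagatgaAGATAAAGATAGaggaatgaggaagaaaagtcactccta
Hdc, chr2:126618679-126618928, minus strand: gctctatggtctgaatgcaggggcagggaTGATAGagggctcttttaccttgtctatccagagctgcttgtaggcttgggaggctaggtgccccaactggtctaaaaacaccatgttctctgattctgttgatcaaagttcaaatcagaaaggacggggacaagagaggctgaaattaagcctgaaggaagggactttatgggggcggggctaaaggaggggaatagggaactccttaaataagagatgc
The Fcer1a window held 1 word, the Ms4a2 and Cd200r3 windows 3 each, and the Hdc window 1. In Cd200r3, a pair of words follow each other without a gap and read as a single run of capitals. The word nearest to the start site began 11 bases before it in Ms4a2, 33 in Cd200r3, 92 in Fcer1a and 221 in Hdc. Of the 3 Mitf windows, 2 held a GATA word, as did both Il1rl1 windows. The word CATGTG and its relative CACGTG, which MITF can bind, were searched on both strands too. They were found in the Fcer1a window alone among the 9, once, against 17.6% of all windows. A match describes these letters and shows no binding.

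The values are array signals on a linear scale, made by the submitters with MAS5 and scaled to a common mean. The median signal of an array lay between 5.93 and 12.3, and signals near it are close to background. Differences are FOG1 ki/ki minus control after adding 16 to each signal and taking log2, so the change of a dim probe set is understated. The replicate 3 arrays stood apart from the others, and their deposited signals carry more decimals than those of replicates 1 and 2. The summed signal of 5 eosinophil genes was 30.9 in FOG1 ki/ki replicate 3 and 25.5 in control replicate 3, against 1327 to 2127 on the other 4 arrays. The summed signal of 12 neutrophil genes was 4237 in FOG1 ki/ki replicate 3 and 2917 in control replicate 3, against 9107 to 16568 on the others. The difference of each measured gene is therefore also given without the replicate 3 arrays. Zfpm1 itself had signals of 480, 868 and 1274 in FOG1 ki/ki and 430, 862 and 1137 in controls, and its transcript level does not check the genotype labels, since a knocked-in allele can be transcribed. The megakaryocyte markers Itga2b and Pf4 were bright on all 6 arrays, from 1843 to 3309 for Itga2b and from 3358 to 4156 for Pf4.

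Fcer1a, the IgE-binding chain, was bright in FOG1 ki/ki and uneven among controls. Its signals were 3317, 3696 and 3912 in FOG1 ki/ki replicates 1 to 3, against 1891 and 2168 in the FOG1+/- controls and 93.1 in the FOG1+/+ control. All FOG1 ki/ki arrays lay above all controls, and the FOG1+/+ array lay far below the rest, though still 12.0 times its array's median. The mean was 3642 ± 301 in FOG1 ki/ki and 1384 ± 1126 in controls (SD, n = 3 each). The log2 difference was 2.25 (SE 1.02, 95% interval -0.12 to 4.61, limma adjusted p = 0.799), and with the replicate number as a block the adjusted p was 0.244. Within equal replicate numbers the log2 differences were 0.81, 0.77 and 5.17, so the third pair sets most of the mean. Without control replicate 3 the difference was 0.84 (limma adjusted p = 0.11). Without both replicate 3 arrays it was 0.79 (limma adjusted p = 0.246, and 0.00558 with the block, where 310 of 11273 genes passed). In a blocked limma fit over all probe sets without these arrays, the adjusted p of this probe set was 0.389. In bulk samples such as these, fewer cells of a type and less RNA per cell cannot be told apart.

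Ms4a2, the beta chain, was higher in FOG1 ki/ki within every replicate number. The brighter probe set read 704, 564 and 189 in FOG1 ki/ki replicates 1 to 3, against 102, 62.9 and 13.3 in control replicates 1 to 3. The groups did not overlap, and in each group the replicate 3 array was the lowest. The ratio of FOG1 ki/ki to control was 6.90, 8.97 and 14.3 within replicates 1, 2 and 3. The log2 differences within replicates were 2.61, 2.88 and 2.81, a narrower range than for Fcer1a. The mean log2 difference was 2.77 (SE 0.63, 95% interval 1.30 to 4.23), which did not pass without the replicate block (limma adjusted p = 0.255). With the block Ms4a2 rose (limma adjusted p = 0.00902, 95% interval 2.34 to 3.19). On simulated data the blocked fit made more false calls than its threshold states. This limits the call and the others made with the block, among them those of Hrh2 and Gp6 below. Without both replicate 3 arrays the difference was 2.74 (limma adjusted p = 0.161, and 0.00444 with the block). In the blocked limma fit over all probe sets without these arrays, the adjusted p of this probe set was 0.360.

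The dimmer Ms4a2 probe set gave the same order. Its signals were 209, 152 and 33.1 in FOG1 ki/ki replicates 1 to 3 and 23.9, 10.7 and 3.71 in control replicates 1 to 3. The groups did not overlap, and control replicates 2 and 3 were below their array's median. The log2 differences within replicates were 2.49, 2.66 and 1.32, and the smallest is that of the pair whose control lay lowest, where the added 16 weighs most. The 2 probe sets correlated at r = 0.97 over the 6 arrays, which share RNA and scaling.

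**Figure D1:**
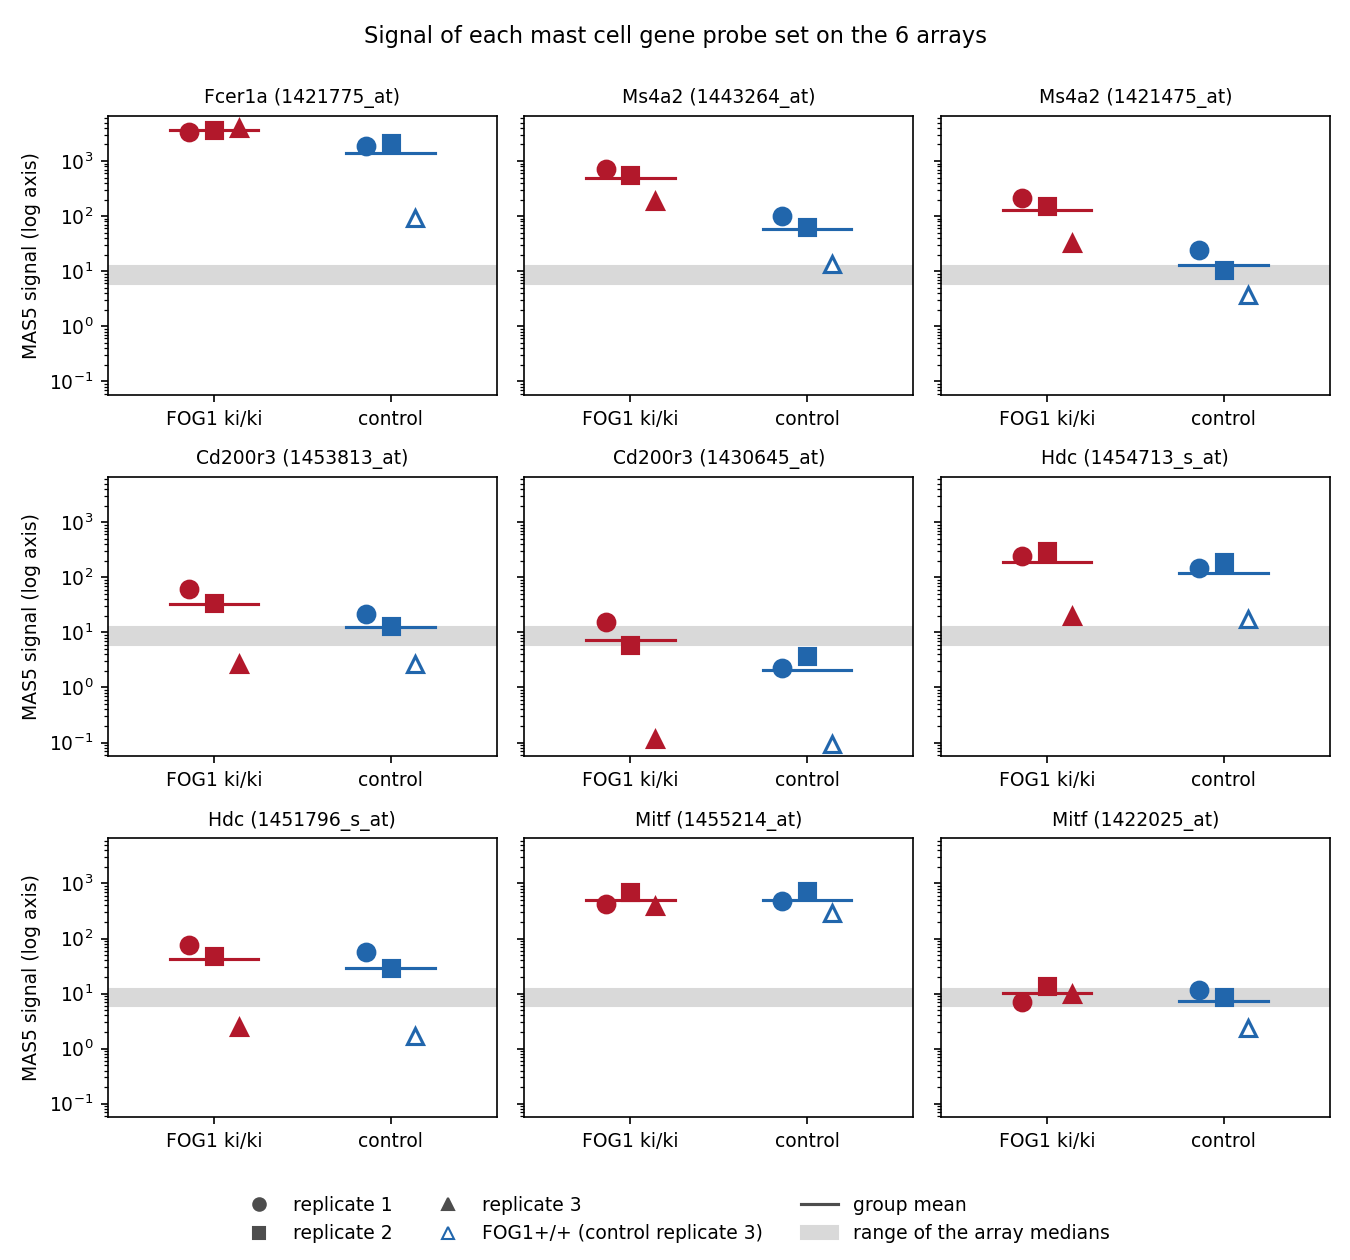
MAS5 signal on a log axis of the 9 probe sets on the 3 FOG1 ki/ki arrays (left, red) and the 3 control arrays (right, blue), with symbols for the replicate number, an open symbol for the FOG1+/+ array, lines for group means and a grey band for the range of array medians, 5.93 to 12.3. The groups do not overlap for Fcer1a and for either Ms4a2 probe set. The replicate 3 arrays are lowest in both groups for Ms4a2, Hdc, Cd200r3 and the brighter Mitf probe set.

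Fcer1g, the third chain, stayed within the spread of the arrays, at 2194, 2795 and 2860 in FOG1 ki/ki against 2441, 2929 and 2653 in controls. Its log2 difference was -0.04 (SE 0.14, 95% interval -0.35 to 0.28, limma adjusted p = 0.999). As a description with no test between genes, the alpha chain was low on the FOG1+/+ array alone, the beta chain was low on all 3 controls, and the gamma chain was high on all 6 arrays.

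By genotype, the order of levels for Fcer1a and for both Ms4a2 probe sets was FOG1 ki/ki, then FOG1+/-, then FOG1+/+. For Fcer1a the FOG1+/- arrays averaged 2029, and for the brighter Ms4a2 probe set 82.5. On the log2 scale the FOG1+/- mean lay 4.23 above the FOG1+/+ array for Fcer1a and 1.72 above it for Ms4a2. The FOG1+/+ genotype has a single array, so this step has no replicate error. That array also shares its replicate number with FOG1 ki/ki replicate 3, whose Fcer1a signal was the highest of all and whose Ms4a2 signal was the lowest of its group. Genotype and replicate number cannot be told apart for the FOG1+/+ array.

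Of the 9 probe sets, 3 had every FOG1 ki/ki array above every control array, those of Fcer1a and Ms4a2, against a background of 4.56% of all probe sets that are no controls. Counted by gene, 2 of the 5 genes tested did so, against 6.32% of the 11260 genes tested. With 3 arrays against 3, an exact two-sided permutation test that ignored the replicate numbers gave p = 0.1 for each of these 3 probe sets. That is the smallest p this test allows. In the limma fit over 11260 genes 0 of the 5 genes rose, against a background of 0.0977%, and 1 of the 5, Ms4a2, had an unadjusted p under 0.05, as did 753 of all 11260 genes. With the block 1 of the 5 rose, Ms4a2, against a background of 0.417%. In that fit 2 of the 5, Ms4a2 and Fcer1a, had an unadjusted p under 0.05, as did 2076 of all 11260 genes. Fitted over all 45037 probe sets that are no controls, dim ones included, 0 of the 9 passed. In that fit 0.00222% of probe sets passed, and 2 of the 9, both of Ms4a2, had an unadjusted p under 0.05, as did 2277 of all 45037. With the block in that larger fit the brighter Ms4a2 probe set had a limma adjusted p of 0.0704.

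**Figure D2:**
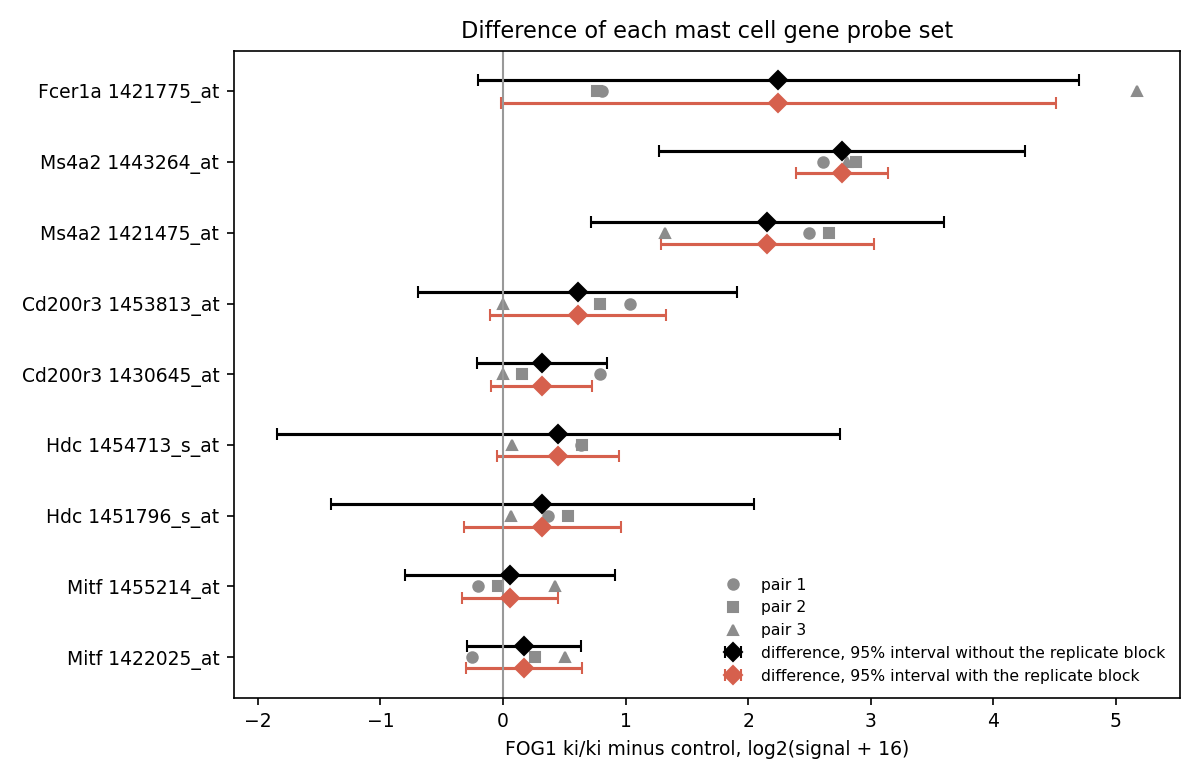
Difference of FOG1 ki/ki minus control on log2(signal + 16) for the 9 probe sets (diamonds), with 95% intervals from the limma fit over all probe sets, without (black) and with (red) the replicate block, and the 3 within-replicate differences (grey). With 16 added, which narrows their spread, the Ms4a2 pairs lie close together at 2.61 to 2.88 for the brighter probe set. Fcer1a has a pair at 5.17 and the rest below 1.

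Cd200r3, the activating receptor of the CD200 receptor family, was dim and did not separate the groups. Its brighter probe set read 61.8, 34.4 and 2.65 in FOG1 ki/ki replicates 1 to 3, against 22.0, 13.1 and 2.62 in control replicates 1 to 3. Replicates 1 and 2 were higher in FOG1 ki/ki, while the replicate 3 arrays were nearly equal and below their array medians. The log2 difference was 0.61 (SE 0.53, limma adjusted p = 0.983), and the adjusted p was 0.279 with the replicate block and 0.764 without both replicate 3 arrays, where the difference was 0.91. Leaving out single arrays gave 1.19 when FOG1 ki/ki replicate 3 was dropped, 0.16 when FOG1 ki/ki replicate 1 was dropped and 0.33 when control replicate 3 was dropped. The other probe set read between 0.0958 and 15.7 and was above the array median on 1 of the 6 arrays, so it gives little beyond background.

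Hdc, the enzyme of histamine synthesis, followed the replicate number more than the genotype. Its brighter probe set read 240, 300 and 19.6 in FOG1 ki/ki replicates 1 to 3, against 149, 186 and 17.8 in control replicates 1 to 3. The groups overlapped, and the replicate 3 array of each group lay far below the others. The log2 differences within replicates were 0.63, 0.64 and 0.07, and their mean was 0.45 (SE 0.96, limma adjusted p = 0.999). With the replicate block the adjusted p was 0.317, with a 95% interval of -0.06 to 0.97. Without both replicate 3 arrays the difference was 0.64 (limma adjusted p = 0.85). With single arrays left out, it was 1.45 when FOG1 ki/ki replicate 3 was dropped and 0.03 when FOG1 ki/ki replicate 1 was. The sign turned when FOG1 ki/ki replicate 2 (-0.12) or control replicate 3 (-0.36) was dropped. The second Hdc probe set read 76.8, 48.7 and 2.49 in FOG1 ki/ki and 55.9, 28.7 and 1.71 in controls, with the same drop in replicate 3.

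The fall of Hdc and Cd200r3 on the replicate 3 arrays went together with other granulocyte genes, which were singled out after their values were seen. Both Ms4a2 probe sets were also lowest on the replicate 3 array of each group. Prg2, an eosinophil granule protein, read 1060, 1396 and 23.1 in FOG1 ki/ki and 1777, 1224 and 16.2 in controls. Mpo, the neutrophil peroxidase, read 1302, 2214 and 120 in FOG1 ki/ki and 1694, 2271 and 99.5 in controls. Both were low in the replicate 3 arrays of either genotype. Mcpt8, a basophil protease, read 1206, 446 and 99.4 in FOG1 ki/ki and 555, 336 and 24.9 in controls, so it was low in replicate 3 and higher in FOG1 ki/ki within each replicate. The part of these genes' cells in the Hdc and Cd200r3 values was not tested.

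Mitf, the mast cell transcription factor, differed between the groups by less than its spread. Its brighter probe set read 414, 697 and 391 in FOG1 ki/ki replicates 1 to 3, against 481, 719 and 287 in control replicates 1 to 3. The groups overlapped fully, with replicate 2 highest in each. The log2 differences within replicates were -0.21, -0.04 and 0.43, and their mean was 0.06 (SE 0.37, 95% interval -0.79 to 0.91, limma adjusted p = 0.999). With the block the 95% interval was -0.33 to 0.44. The difference was -0.13 without both replicate 3 arrays, -0.27 when control replicate 3 alone was dropped and -0.20 when FOG1 ki/ki replicate 2 was. The other probe set lay between 2.35 and 13.5, around the array medians.

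**Figure D3:**
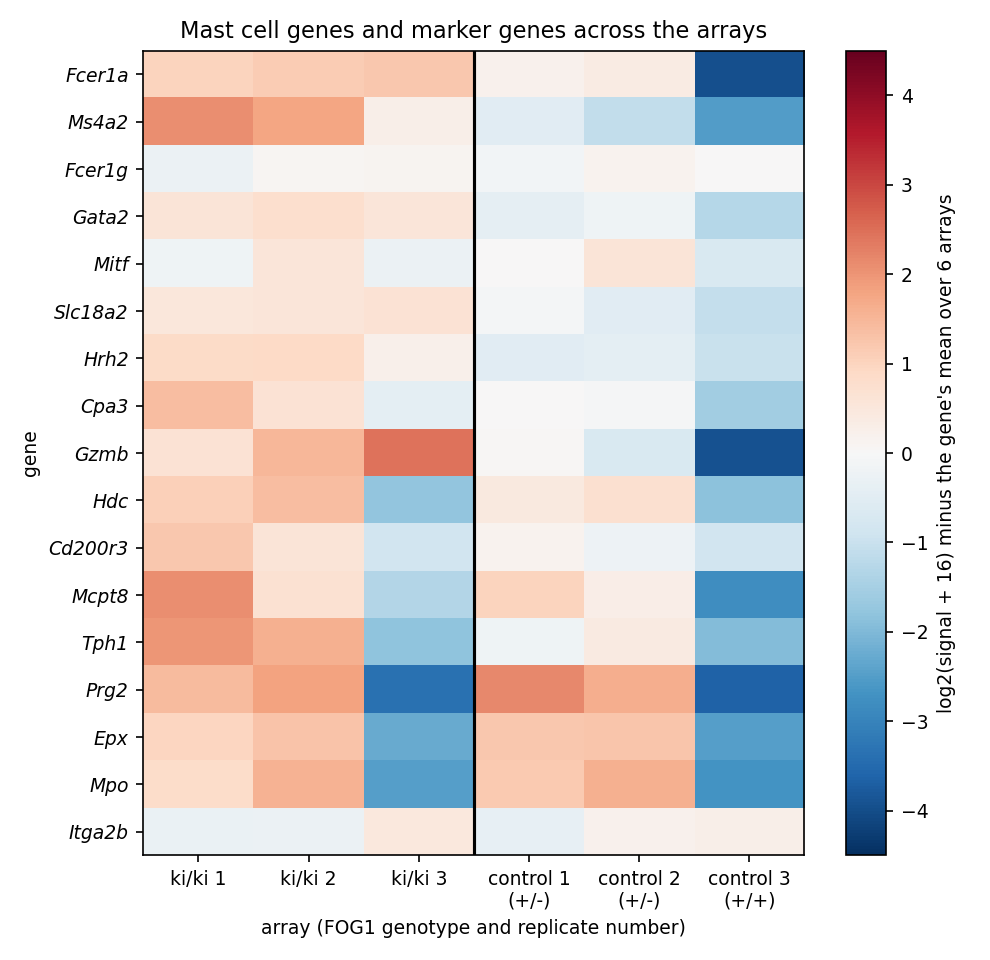
Log2(signal + 16) minus the gene's mean over the 6 arrays, from blue (lower) to red (higher), for the genes in rows and the arrays in columns, FOG1 ki/ki left and controls right. Every gene shown but Fcer1g and Itga2b is lowest on the FOG1+/+ array. Fcer1a, Ms4a2, Gata2, Slc18a2, Hrh2 and Gzmb are lower on all 3 controls than on all FOG1 ki/ki arrays. Hdc, Cd200r3, Mcpt8, Tph1, Prg2, Epx and Mpo are low on the replicate 3 arrays of either group.

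The genes nearest to each pattern were taken as the 3 with the highest Pearson r over the 6 arrays among genes with at least 50% of the gene's own log2 range, as a description of arrays that share scaling and replicate effects. For Fcer1a they were Cdh2 (N-cadherin, r = 0.999), Cd24a (r = 0.985) and Spn (the sialoglycoprotein CD43, r = 0.969). Cdh2 read 1027, 1176 and 1041 in FOG1 ki/ki, against 641, 700 and 40.0 in controls, so it too was low on the FOG1+/+ array. For Ms4a2 they were Aqp9 (a water and glycerol channel, r = 0.991), Rph3al (r = 0.985) and Cadm3 (r = 0.983). Aqp9 read 445, 394 and 238 in FOG1 ki/ki, against 168, 103 and 70.7 in controls, with no overlap. Those of Cd200r3 were Prcp (r = 0.987), Ada (r = 0.985) and Dtx4 (r = 0.985), those of Hdc were BC018473 (r = 0.994), Diaph3 (r = 0.992) and Ly6f (r = 0.990), and those of Mitf were Lrp4 (r = 0.992), Selplg (r = 0.989) and Ttl (r = 0.984). Fcer1a and Ms4a2 themselves correlated at r = 0.80 over the 6 arrays, and Hdc and Cd200r3 at r = 0.87.

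Of the other genes listed for IgE receptor signalling, 28 were tested, and 0 passed with or without the replicate block. Of these, 15 lay above control and 13 below, with a median log2 difference of 0.01, beside 0.03 over all genes tested. At an unadjusted p under 0.05 there were 5 genes, against 753 of all 11260, and with the block 10 genes, against 2076 of all 11260. Nfatc2, a calcium-activated transcription factor, had a log2 difference of 1.25 (limma adjusted p = 0.329) and the adaptor Lat2 one of 1.35 (0.382). Pik3cd, the leukocyte PI3-kinase subunit, had one of 0.89 (0.503). Grap2, an adaptor also known as Gads, had one of -1.53 (0.62). The tyrosine kinase Syk, which the receptor uses in mast cells as the collagen receptor does in platelets, had a difference of -0.15 (limma adjusted p = 0.999).

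Other parts of the programme were also mixed. Of 13 tested interleukin-33 receptor signalling genes 0 passed, 6 lay above and 7 below control, and the median was -0.04, with Irak2 at 0.63 and Tnfaip3 at -0.55, and 0 had an unadjusted p under 0.05 with or without the block. Of 8 tested CD200 receptor family genes and adaptors 0 passed, 2 lay above and 6 below, the median was -0.32, and 2 had an unadjusted p under 0.05 (4 with the block). Cd200, the ligand of the inhibitory receptor, read 52.0, 85.5 and 77.6 in FOG1 ki/ki, against 251, 265 and 150 in controls (log2 difference -1.42, limma adjusted p = 0.251, 0.0724 with the block). Cd200r1, the inhibitory receptor, had a difference of -0.60 and Tyrobp, the adaptor DAP12, one of -0.75. The sign of these differences is opposite to that of Cd200r3 (0.61), and none of them passed. Of 7 tested MS4A family genes other than Ms4a2, 0 passed, 1 lay above control, Ms4a3 (0.73), the median was -0.80, and 0 had an unadjusted p under 0.05 (4 with the block). Beside these counts, 753 of all 11260 genes tested had an unadjusted p under 0.05, and 2076 with the block. Ms4a3 and Ms4a6d are the genes next to Ms4a2 on chromosome 19, and Ms4a6d had a difference of -0.87 (limma adjusted p = 0.935).

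Of 6 tested genes for histamine synthesis, storage and response other than Hdc, 3 lay above and 3 below control. Slc18a2, the vesicular transporter that loads histamine and serotonin into granules and also serves platelets, read 1867, 1929 and 2062 in FOG1 ki/ki, against 1227, 913 and 610 in controls. The groups did not overlap (log2 difference 1.13, SE 0.24, limma adjusted p = 0.223, 0.0728 with the block). Hrh2, a histamine receptor, was dim, with 45.6, 47.2 and 23.7 in FOG1 ki/ki against 7.90, 8.80 and 0.826 in controls. It rose with the replicate block (log2 difference 1.32, limma adjusted p = 0.0461) and not without it (0.251). Every control lay below its array's median, so the added 16 weighs on the size of this difference. Hrh2 thus owes its place among the genes tested mainly to its FOG1 ki/ki signals, which limits this call. Hnmt, which breaks histamine down, had a difference of -0.42.

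Among 24 tested factors of the MITF family and of mast cell transcription 0 passed, 11 lay above and 13 below control, and the median was -0.02. An unadjusted p under 0.05 was found for 4 (8 with the block), beside 753 of all 11260 genes (2076 with the block). Gata2, which mast cells keep and maturing megakaryocytes lower, read 1797, 2017 and 1767 in FOG1 ki/ki, against 911, 1048 and 481 in controls, with no overlap. Its log2 difference was 1.25 (SE 0.27, limma adjusted p = 0.242, 0.0584 with the block). Lmo2, a bridging factor of GATA complexes, had a difference of 0.35, Cebpa, a factor of granulocytes, one of -1.10, and Tfec, a relative of Mitf, one of -1.19. The other relatives of Mitf, Tfe3 and Tfeb, had differences of -0.01 and -0.25.

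**Figure D4:**
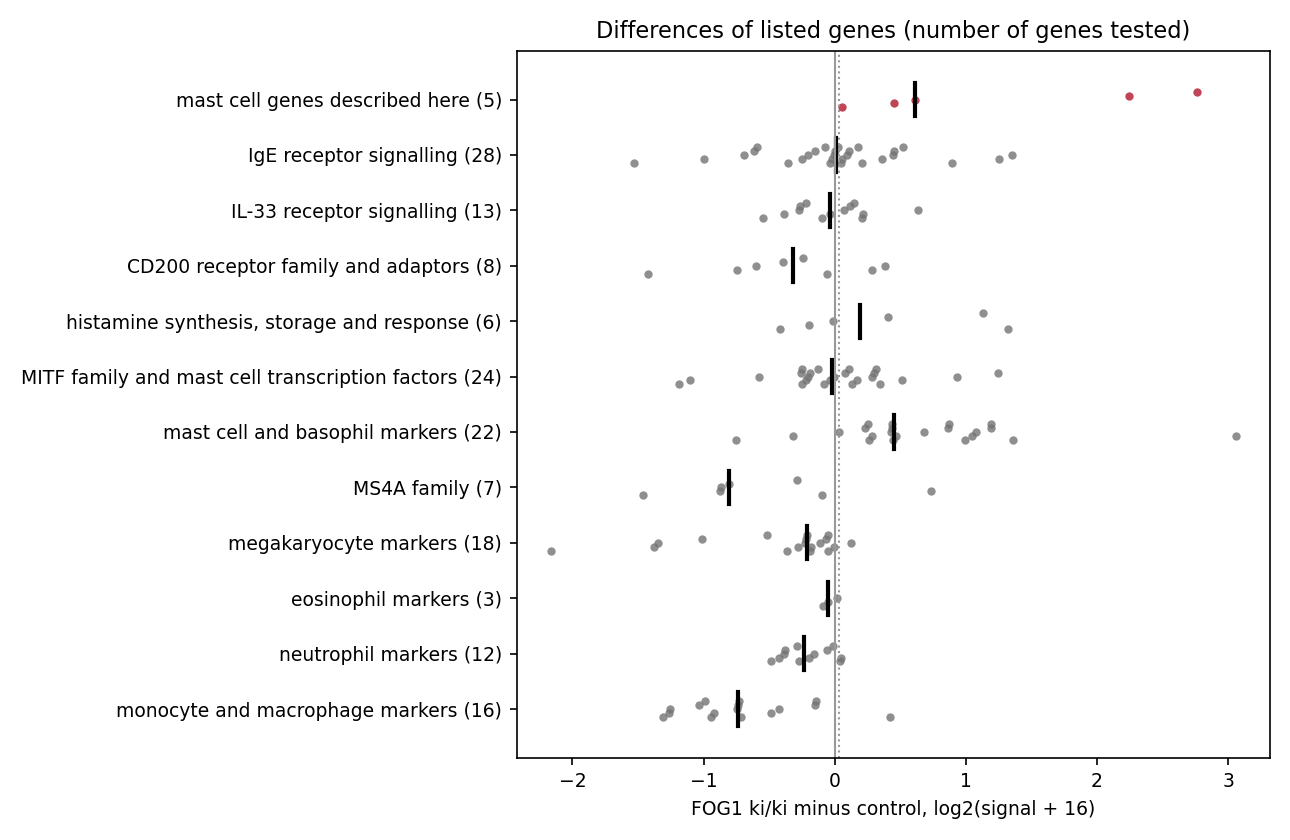
Log2 difference of FOG1 ki/ki minus control for each tested gene (points) of the listed groups, with the group's median (black bar), a solid line at 0 and a dotted line at the median of all genes tested, 0.03. Ms4a2 and Fcer1a lie at 2.77 and 2.25, while the IgE receptor signalling genes have a median of 0.01.

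Mast cell and basophil markers other than the 6 genes lay above control in 20 of 22 tested cases with a median of 0.46, beside 55.1% above and a median of 0.03 over all genes tested, and 0 passed with or without the block. An unadjusted p under 0.05 was found for 2 of the 22, where 753 of all 11260 genes had one. In the blocked fit it was found for 9 of the 22, where 2076 of all 11260 genes had one. The count above control was 16 of 22 and the median 0.24 without control replicate 3, and 16 of 22 and 0.28 without both replicate 3 arrays. Their summed signal over 30 genes was 12357 to 15191 in FOG1 ki/ki and 6881 to 11566 in controls. This sum is linear, so its brightest genes, Csf2rb, Csf2rb2 and Alox5, weigh most on it. Their mean signals were 2696.5, 2261 and 2321 in FOG1 ki/ki and 2279, 1538 and 1663 in controls. Gzmb, a granzyme, had a log2 difference of 3.06 (limma adjusted p = 0.485), Mcpt1 one of 1.36 (0.714), Mcpt2 one of 1.19 (0.884) and Alox5, of leukotriene synthesis, one of 0.47 (0.806). Within replicates 1, 2 and 3 the log2 differences were 0.61, 2.20 and 6.36 for Gzmb. They were -0.46, 1.73 and 2.82 for Mcpt1 and 0.22, 0.46 and 2.89 for Mcpt2, so the replicate 3 pair was the highest for each of these 3 genes. The tryptase gene Tpsab1 and the connective tissue mast cell protease Mcpt4, markers of mature mast cells, were below the array median on all 6 arrays, with highest signals of 4.30 and 1.80, as was Il9r, the interleukin-9 receptor. Other genes of the list did not share this. Cma1 read 113, 81.4 and 24.3 in FOG1 ki/ki and 23.9, 52.6 and 14.7 in controls, above the median on every array (log2 difference 0.86, limma adjusted p = 0.916). Tpsb2 read 16.3 in FOG1 ki/ki replicate 1, above that array's median, and at most 4.5 elsewhere. Kit, the stem cell factor receptor of mast cells, was dim, at 31.8, 38.0 and 47.9 in FOG1 ki/ki and 41.6, 28.0 and 10.7 in controls. Cpa3, the mast cell carboxypeptidase, read 638, 382 and 170 in FOG1 ki/ki and 239, 224 and 68.2 in controls, higher in FOG1 ki/ki within each replicate.

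For markers of other cells the summed signals of the groups overlapped. The summed signal of 18 megakaryocyte markers was 28476 to 35504 in FOG1 ki/ki and 33586 to 41892 in controls, and that of 16 monocyte and macrophage markers 7813 to 17238 in FOG1 ki/ki and 13032 to 22041 in controls. Within each replicate number, however, both of these sums were lower in FOG1 ki/ki than in the control. Of the megakaryocyte list 17 of 18 tested genes lay below control (median -0.21), and 6 had an unadjusted p under 0.05 (8 with the block). Of the monocyte and macrophage list 15 of 16 tested genes lay below control (median -0.74), and 2 had such a p (8 with the block). Over all 11260 genes tested 753 had one, and 2076 with the block. Gp6, a platelet collagen receptor that signals through Fcer1g, fell with the block (log2 difference -1.35, limma adjusted p = 0.0342) and did not pass without it (0.356). The 3 tested eosinophil markers had a median of -0.05, with 2 below control. The 12 neutrophil markers had one of -0.24, with 10 below control. The part of the mast cell, basophil and other markers in the Ms4a2 and Fcer1a results was not tested.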

How the data were processed

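Expression was measured on 6 arrays, 3 FOG1 ki/ki and 3 control, 1 value per probe set. The authors deposited intensities on a linear scale, which the submitters' processing notes credit to MAS5 without a version. NuGEN Ovation kits served for amplification and labelling, per the labels' protocols. Every array had a 2% trimmed mean of 150, so all share a scaling target and changes in a cell's total RNA are not visible. Precision is limited by the number of arrays.

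Control probe sets, 64 of 45101, were left out. Probe sets were named from the platform annotation, in which 34958 had 1 symbol, 932 several and 9160 that were no controls had none. Values were taken as log2(signal + 16), and the lower 50% of probe sets by mean was left out. Each gene was read from its brightest probe set, which gave 11260 genes. Of the 9 probe sets described, 7 passed this filter, 1 at least for each of the 5 genes. Differences were tested with limma 3.58.1 in R 4.3.3, using eBayes with its trend option. P-values were adjusted after Benjamini and Hochberg over all genes, with a threshold of 0.05, and a second fit covered all 45037 probe sets that were no controls. Python 3.11.15 with pandas 2.3.3 and matplotlib 3.10.9 did the rest. Promoter sequences are those of RefSeq, build GRCm38.p6, and windows were found for all 6 genes.

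After subtracting group means, same-numbered arrays correlated at 0.438 to 0.648 over 22518 probe sets, and differently numbered arrays at most at 0.0229, so replicate numbers were read as pairs. The fit without the block remained the main one. The fits were tested on simulated data, where the blocked fit made more false calls than its threshold states. The 6 genes, the lists and the rule for named genes were chosen with earlier results of these data known. The rule named the 6 genes, Zfpm1, Fcer1g and Gata2 always, and from each list the genes past the threshold with or without the block and up to 4 with the smallest unadjusted p. Other genes named were chosen after their values were seen. Other pseudocounts, scalings, filters, probe set choices and left-out arrays were tried.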

Additional observations from a re-analysis of the deposited data

How the results depend on the processing

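Over 11260 genes 17 passed without the replicate block, 11 higher and 6 lower. The count was 8 with a pseudocount of 1 (5 higher, 3 lower), 1 with no filter on dim probe sets (0 higher, 1 lower), 3 in the brightest 25% of probe sets (1 higher, 2 lower), 9 with the mean over probe sets of a gene (7 higher, 2 lower) and 94 with the replicate block (47 in each direction). It was 0 to 2 with any 1 array or any replicate number left out. With the replicate block kept it was 331 without replicate 1, 114 without replicate 2 and 310 without replicate 3. Of the 5 genes described, 1 passed with the replicate block (Ms4a2), 1 when replicate 1 or 2 was also left out (Ms4a2), and 2 without replicate 3 (Ms4a2 and Fcer1a, limma adjusted p = 0.00444 and 0.00558). In the blocked fit over all probe sets without replicate 3, 0 of the 9 probe sets passed. Across all alternatives the adjusted p of Ms4a2 ran from 0.00444 to 0.9999 with differences of 2.08 to 3.32, and that of Fcer1a from 0.00558 to 0.9999 with differences of 0.79 to 3.0, so both stayed above 0. In the fit over all probe sets, centring each array on its median passed 2 of the 9 probe sets, both of Ms4a2, among 163 called (86 higher, 77 lower), against 1 called (lower) as deposited. The cause was not tested.

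Signs turned only for Hdc and Mitf. With arrays or replicate numbers left out, Hdc ran from -0.36 to 1.45 (-0.12 without FOG1 ki/ki replicate 2), its second probe set from -0.24 to 1.01 (-0.15 without FOG1 ki/ki replicate 1), and Mitf from -0.27 to 0.37 (-0.20 without FOG1 ki/ki replicate 2 and -0.13 without replicate 3, also with the replicate block). With all arrays kept, the replicate block changed the calls of Ms4a2, Hrh2 and Gp6 and no other call among the followed genes and the lists. The genes nearest to each pattern, such as Aqp9 and Rph3al, are not covered by this statement. Signals near the array medians limit Cd200r3 and the dimmer probe sets of Ms4a2, Hdc and Mitf.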
